A study of Mus musculus with 3 samples.

Results

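FOG2 peaks in gene deserts were the peaks whose summit lay outside every annotated gene body and over 100 kb from the nearest protein-coding gene. They numbered 1178 of the 6067 autosomal peaks (19.4%, Wilson 95% interval 18.4 to 20.4), out of 6166 peaks in the whole series. The choice used position only: the summit had to lie outside all RefSeq gene bodies of any biotype on mm10, and values of binding played no part in it. The chromatin came from heart ventricles of mouse embryos at E12.5 that carried a FOG2 allele with a tag for biotin (Fog2flbio/flbio) and the biotin ligase BirA at Rosa26 (Rosa26BirA/BirA). The libraries were 2 streptavidin pulldowns of biotinylated FOG2, with about 20 ventricles pooled in each, and 1 input library from the same kind of tissue as control. The labels give the genotype of all 3 libraries as WT and the antibody of the pulldowns as FOG2, whereas the protocol names the tagged alleles and streptavidin. No pulldown without tagged FOG2 was analysed here, and with no expression values the labelled tissue could not be checked against its markers.

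FOG2, encoded by Zfpm2, is a zinc finger protein that does not act mainly by reading DNA itself but by binding GATA factors, above all GATA4 in the heart, whose activity it raises or lowers. Gene deserts are long stretches with no protein-coding gene. Many of them hold enhancers that act over long distances on a gene for a developmental regulator at their border, and the genes of Iroquois and T-box factors are known cases.

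The values are 1 list of peaks that the authors called on the pooled pulldown, so no value per replicate exists and no difference below was tested between libraries. Fold, as the authors deposited it, divides the pulldown by the control at the position of the summit. The number of pulldown fragments and the control level at each summit were worked out from the deposited fold and −log10 p. Intervals on fragments and on peaks per Mb are exact 95% Poisson intervals, those on shares are Wilson 95% intervals, and all cover counting error only. Desert peaks rested on a median of 12 fragments, with quartiles of 9 and 16 (a count of 12 has an interval of 6.20 to 21.0), so single folds near the middle of the range could not be ordered.

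In 5 desert peaks the summit fell in the RefSeq promoter window of a long noncoding RNA (lncRNA), the 250 bases before and 50 after its start. They are the desert peaks for which DNA sequence was at hand, and they are shown because they give the bases under FOG2 far from any coding gene. The remaining 1173 desert peaks have no sequence here. Each line gives the part of the peak that lies in the window, 5′ to 3′ on the strand of the lncRNA (build GRCm38.p6). Capitals mark GATA motifs on either strand, in the form AGATAA or in the form AGATAG, or with T in place of the leading A.
Gm36335: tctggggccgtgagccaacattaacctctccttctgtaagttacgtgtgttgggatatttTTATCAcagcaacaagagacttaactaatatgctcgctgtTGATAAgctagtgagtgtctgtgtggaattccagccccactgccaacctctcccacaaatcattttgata
Gm33321: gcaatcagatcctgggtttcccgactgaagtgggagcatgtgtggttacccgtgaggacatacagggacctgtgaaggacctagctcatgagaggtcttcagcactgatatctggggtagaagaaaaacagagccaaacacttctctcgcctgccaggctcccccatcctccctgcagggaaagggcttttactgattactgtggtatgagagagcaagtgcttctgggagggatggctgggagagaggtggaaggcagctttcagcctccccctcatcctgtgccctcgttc
Gm39767: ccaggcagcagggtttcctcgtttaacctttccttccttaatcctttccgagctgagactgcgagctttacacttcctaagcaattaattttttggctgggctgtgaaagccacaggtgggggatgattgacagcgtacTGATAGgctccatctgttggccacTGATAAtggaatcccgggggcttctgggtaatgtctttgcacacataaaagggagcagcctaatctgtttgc
Gm52716: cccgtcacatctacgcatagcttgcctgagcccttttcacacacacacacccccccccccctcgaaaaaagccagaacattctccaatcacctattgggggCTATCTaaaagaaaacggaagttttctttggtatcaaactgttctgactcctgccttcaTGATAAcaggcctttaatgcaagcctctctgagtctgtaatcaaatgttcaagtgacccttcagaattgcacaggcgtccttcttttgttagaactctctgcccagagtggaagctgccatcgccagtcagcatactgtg
Gm38866: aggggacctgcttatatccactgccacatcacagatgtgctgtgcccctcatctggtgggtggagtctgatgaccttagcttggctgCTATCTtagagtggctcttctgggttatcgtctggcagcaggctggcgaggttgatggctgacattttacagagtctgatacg

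The stretch at Gm52716 came from chr4:29092767-29093066 on the minus strand and belonged to the strongest of these peaks, at 9.02-fold with 19 fragments (11.4 to 29.7). Its summit lay 35 bases before the lncRNA start, 125 kb from Epha7, an ephrin receptor gene, and 2871 kb from Map3k7. The stretch at Gm33321 came from chr14:58300552-58300844 on the plus strand, in the desert beside Fgf9, and was 7.08-fold with 19 fragments. That at Gm36335 came from chr10:54365304-54365473 on the minus strand, between Man1a and Tbc1d32, and was 6.55-fold with 13 fragments. The peak at Gm39767 (chr2:21964183-21964417, minus strand) was 4.92-fold with 9 fragments, and that at Gm38866 (chr6:100094889-100095058, plus strand) was 4.25-fold with 11. These folds lie on both sides of the desert median, and the intervals on their fragments overlap.

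A GATA motif in one of the 4 forms stood within 4 of the 5 printed stretches, with 2 matches each at Gm36335, Gm39767 and Gm52716 and 1 at Gm38866. The stretch at Gm33321 had 0. The whole 300-base windows gave the same 4 of 5, and 29.8% of all 32851 promoter windows of that length hold such a motif, or 36.6% of the 11588 windows of lncRNAs. The 4 forms were chosen after the sequences were seen. With AGATAA alone, 1 of the 5 windows held a match, against 11.2% of all windows. Of the other motifs searched on both strands, the T-box form AGGTGT and the TEAD form GGAATG had no match in these 5 windows, against 13.7% and 14.7% of all windows. The NKX form AAGTG was in 4 of the 5, against 46.4%, and the E-box CANNTG in all 5, against 72.3%. The T-box form and the E-box can overlap. A match is only a description of these letters. A summit in a promoter window of any gene was found for 0.424% of desert peaks and for 1.27% of the other autosomal peaks (62 of 4889). The rule keeps desert summits out of the windows of coding genes, so these 2 shares cannot be compared.

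Desert peaks lay a median of 258 kb from the nearest protein-coding gene body, with quartiles of 158 and 431 kb. For 225 of them (19.1%) that distance was over 500 kb, for 60 it was over 1000 kb, and the farthest lay 2099 kb away. The gene on the other side stood at a median of 660 kb. Noncoding genes were closer, which the rule favours, since it keeps summits out of their bodies but sets no distance to them. The median distance to the nearest was 40.2 kb, 193 desert peaks (16.4%) had one within 10 kb and 276 (23.4%) had none within 100 kb. The share of desert sequence at these distances was not worked out, so these values are no trait of the peaks.

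Over all deserts, peaks were sparser than in the rest of the autosomes, and only the class of deserts with over 1000 kb of sequence that met the rule had an interval wholly below that of the rest. Autosomal sequence that met the rule for a desert came to 596 Mb, or 24.5% of the length between the first and last coding gene of each chromosome. It held 1.98 peaks per Mb (1.86 to 2.09), against 2.67 per Mb (2.59 to 2.74) in the remaining 1834 Mb. The density was lower in deserts on each of the 19 autosomes, but on most of them its interval overlaps that of the rest. It ranged over the deserts of single chromosomes from 1.25 per Mb (0.814 to 1.83) on chromosome 17 to 3.03 (2.43 to 3.74) on chromosome 13. The rest of these chromosomes held 2.58 (2.23 to 2.98) and 3.06 (2.71 to 3.45). Assembly gaps and unmappable stretches were not removed from these lengths.

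Within desert sequence, density went down with distance from genes, though the intervals of the bins up to 500 kb overlap. Between 100 and 200 kb from a coding gene it was 2.54 per Mb (2.31 to 2.79). At 200 to 300 kb it was 2.36 (2.08 to 2.67) and at 300 to 500 kb 2.18 (1.93 to 2.45). At 500 to 1000 kb it was 1.26 (1.07 to 1.47), and beyond 1000 kb 0.930 (0.709 to 1.20). The interval of the nearest desert bin overlaps that of intergenic sequence 5 to 100 kb from a coding gene, which held 2.34 peaks per Mb (2.21 to 2.48). Intergenic sequence within 5 kb of a coding gene held 2.04 (1.80 to 2.31), an interval that overlaps that of all deserts. Outside gene bodies, density was thus not highest next to genes. Gene bodies held more, with 3.08 per Mb (2.84 to 3.33) where only a noncoding gene lay and 2.83 (2.72 to 2.94) in coding bodies.

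**Figure D1:**
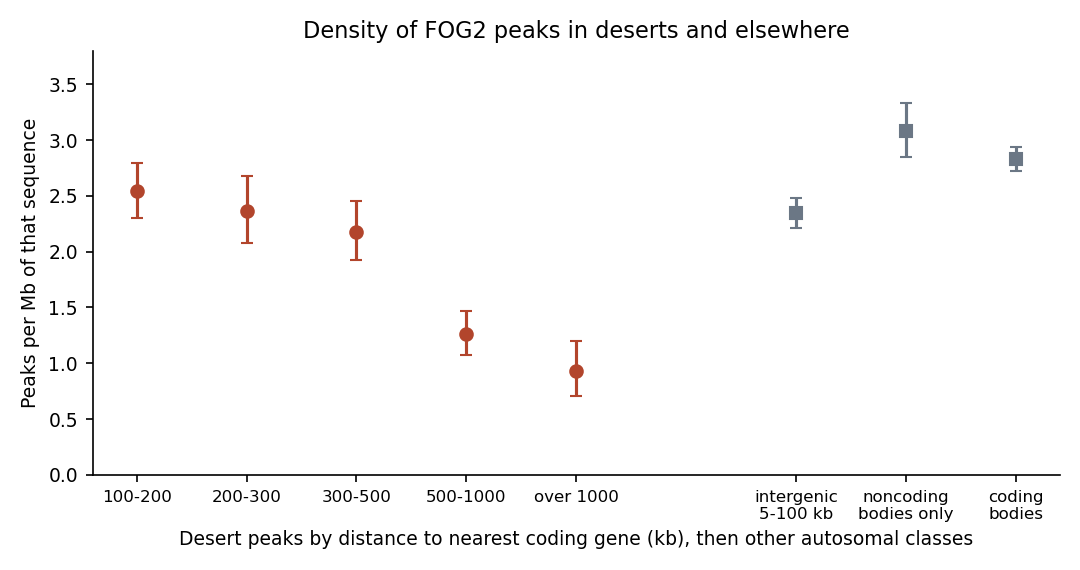
FOG2 peaks per Mb of sequence (y axis) in deserts by distance to the nearest coding gene in kb (circles) and in 3 other classes of autosomal sequence (squares), with exact 95% Poisson intervals. The first 3 desert bins lie between 2.18 and 2.54 per Mb, and both bins beyond 500 kb lie at 1.26 or less. Intergenic sequence within 5 kb of a coding gene (2.04 per Mb) is not drawn.

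The size of the desert moved with this pattern. Deserts with at most 100 kb of sequence that met the rule held 3.50 peaks per Mb (2.74 to 4.42). Those of 100 to 300 kb held 2.75 (2.37 to 3.17) and those of 300 to 1000 kb 2.48 (2.27 to 2.71), and the intervals of these 3 classes overlap that of the sequence outside deserts. Those with over 1000 kb held 1.37 (1.24 to 1.51). Within the deserts of over 1000 kb, density was 1.63 (1.21 to 2.15) at 100 to 200 kb from a gene, 1.83 (1.501 to 2.20) at 300 to 500 kb and 0.930 beyond 1000 kb. At the same 100 to 200 kb, deserts of 300 to 1000 kb held 2.63 (2.25 to 3.06). At that distance the deserts over 1000 kb thus held fewer peaks per Mb, and within the longest deserts density was lowest beyond 1000 kb.

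Fold in deserts was close to that elsewhere. The median was 6.73 (95% binomial interval of the median 6.38 to 6.84), with quartiles of 5.45 and 9.08, against 6.38 (6.32 to 6.50) in other autosomal peaks, with quartiles of 5.41 and 8.57. In all, 222 desert peaks (18.8%, 16.7 to 21.2) reached 10-fold, against 16.8% of all autosomal peaks, and 38 reached 20-fold. Both groups had a median of 12 fragments. The control level went the opposite way to the fold, with a median of 0.724 in desert peaks and 0.828 in the others. It was below 0.8 in 57.0% of desert peaks and 46.3% of the others. The part of the control level in the higher fold was not tested. Over bins of distance the median fold ran between 6.08 at 500 to 1000 kb and 7.60 beyond 1000 kb, where 60 peaks gave an interval of 6.30 to 8.76.

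**Figure D2:**
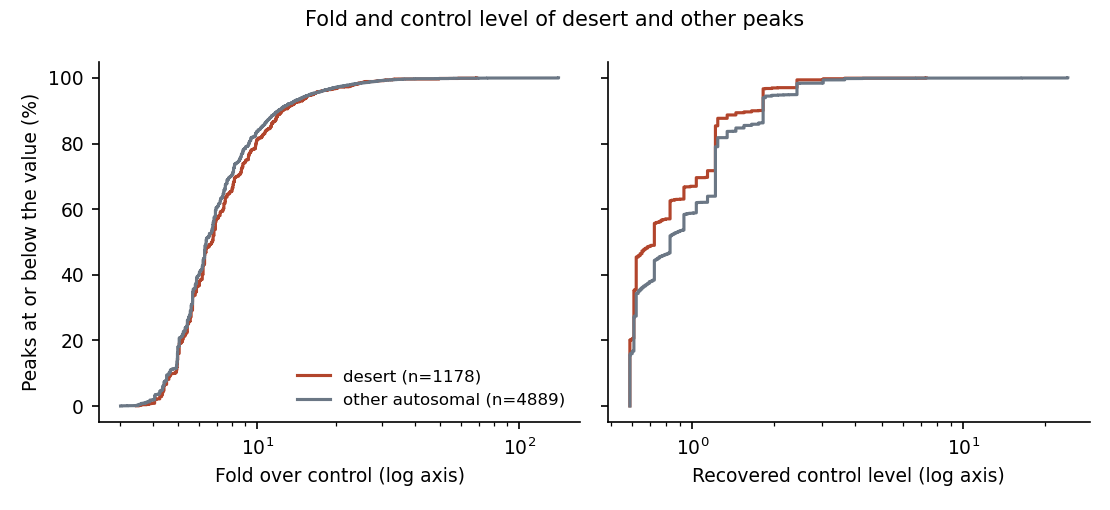
Share of peaks at or below each fold (left) and each recovered control level (right), on log axes, for the 1178 desert peaks and the 4889 other autosomal peaks. The fold curves nearly coincide, with medians of 6.73 in deserts and 6.38 elsewhere, while the control curve of desert peaks lies to the left.

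Desert peaks had a median width of 259 bp, against 250 bp in the others. A width of at least 1000 bp was found for 22 desert peaks (1.87%), against 1.2% of all autosomal peaks and 1.04% of the others (51 of 4889). This difference in width was not tested. Another summit lay within 10 kb of 235 desert peaks (19.9%, 17.8 to 22.3), against 18.6% of all autosomal peaks. The share with another summit within 10 kb is near the background. Linked at 10 kb, 227 desert peaks formed 110 groups of 2 to 4.

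The strongest desert peaks were wide, and they lay at the distances usual for desert peaks, 150 to 436 kb from the nearest coding gene for the first 10. The first 7 by fold are described with the genes on both sides. The highest spanned 54297843 to 54299137 on chromosome 18, at 68.8-fold with 109 fragments (89.5 to 131), between Csnk1g3, a casein kinase gene 342 kb away, and the zinc finger gene Zfp608, 590 kb away. The next, at 58.5-fold with 95 fragments (76.9 to 116), spanned 27245499 to 27246921 on chromosome 15, 351 kb from the F-box gene Fbxl7 and 220 kb from Ank, which acts in pyrophosphate transport. A peak of 49.4-fold with 79 fragments (62.5 to 98.5) lay at 23533040 to 23534345 on chromosome 1, 150 kb from Ogfrl1 and 228 kb from B3gat2. These intervals on fragments overlap from each peak to the next.

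On chromosome 10, a peak at 12015789 to 12016939 was 49.3-fold with 84 fragments (67.0 to 104). It lay 557 kb from Epm2a, the gene of the glycogen phosphatase laforin, and 366 kb from Utrn, the gene of utrophin, a relative of dystrophin at the muscle membrane. At 117390420 to 117390935 on chromosome 6, a peak was 33.4-fold with 67 fragments (51.9 to 85.1), 209 kb from Cxcl12, a chemokine gene active in coronary vessel growth, and 450 kb from Zfp637. A peak of 33.0-fold with 52 fragments (38.8 to 68.2) lay on chromosome 8 at 12056310 to 12057324, between Tex29 and A230072I06Rik. The desert between Nyap2 and Irs1, the gene of an insulin receptor substrate, held, on chromosome 1 at 81724390 to 81725595, a peak of 32.8-fold that rested on 76 fragments (59.9 to 95.1). A further peak in the same desert, 30.5 kb away, was 24.9-fold.

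The remaining peaks among the strongest 10 were 31.1-fold between Arpp21 and Pdcd6ip, 30.6-fold between Klf12, a Krüppel-like factor gene, and Prr30, and 30.5-fold between the gene models Gm46320 and Gm52008. Widths among these 10 ran from 516 to 1423 bp, above the median desert peak. The control level was between 0.600 and 1.34 at each of them. Of all desert peaks it reached at most 7.30.

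**Figure D3:**
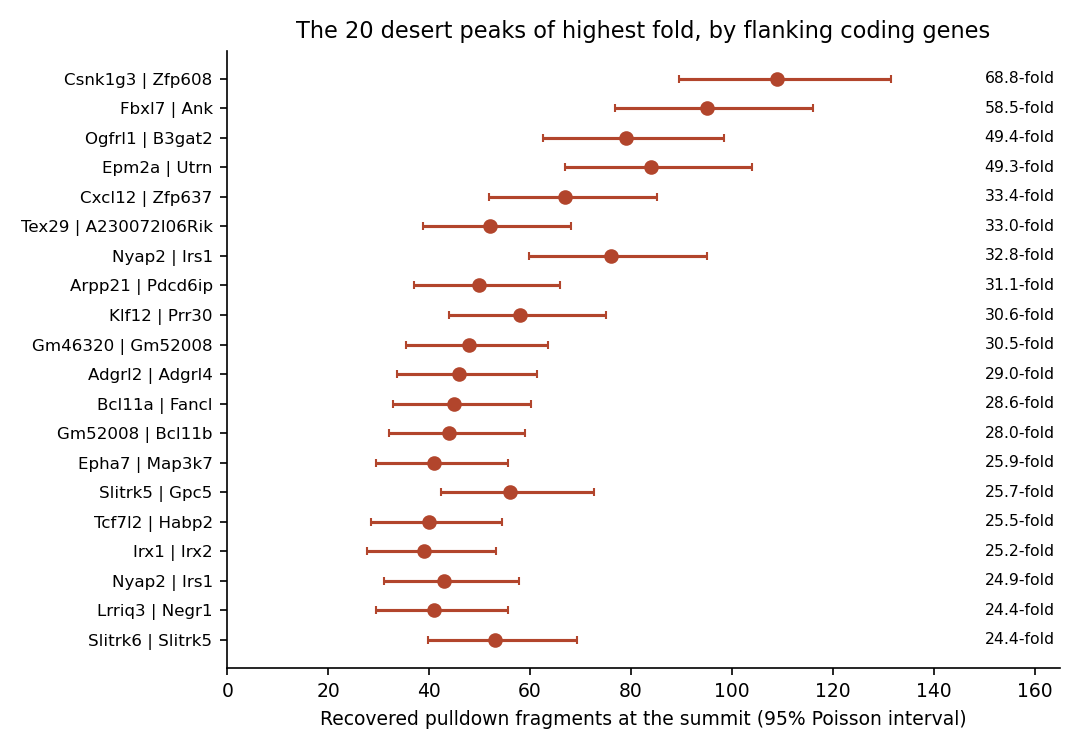
Pulldown fragments at the summit (x axis, with 95% Poisson intervals) of the 20 desert peaks of highest fold, from the highest at the top, named by the coding genes on both sides with the fold at the right. Only the first 4 folds exceed 49, and the intervals of neighbouring peaks overlap.

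Desert peaks gathered in some deserts. Of 1349 deserts, 520 held at least 1 desert peak (38.5%), 248 of them a single one, and 53 held 5 or more, which together had 350 peaks (29.7% of all desert peaks). One desert peak lay before the first coding gene of its chromosome and belongs to no desert. Deserts with a peak were longer, with a median of 480 kb of sequence that met the rule, against 107 kb in deserts without.

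The desert between Irx1 and Irx2 on chromosome 13 had the highest density among the 8 deserts with the most peaks. Irx1 and Irx2 encode Iroquois homeodomain factors, a family that patterns the ventricles. The 8 deserts were picked by their number of peaks, so a count above the mean density is in part a result of that choice. The desert of Irx1 and Irx2 held 10 peaks in its 459 kb, or 21.8 per Mb (10.4 to 40.1), where the mean density of deserts would give 0.907. The strongest, at 72487543 to 72488165, was 25.2-fold with 39 fragments (27.7 to 53.3), 524 kb from Irx1 and 137 kb from Irx2. Another 3 summits followed it within 1.53 kb, at 10.7-, 5.67- and 6.30-fold, the largest group of desert summits linked at 10 kb. The other 6 were spread over the desert at 5.04- to 13.3-fold. The next desert along the cluster, between Irx2 and Irx4, held 3 more peaks, led by 13.2-fold with 21 fragments (12.999 to 32.1) at 73077781 to 73078163, 182 kb from Irx4.

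The desert with the most peaks lay on chromosome 12 between the gene model Gm40892 and Flrt2, which encodes an adhesion protein needed in the mouse epicardium. It held 16 peaks in 2444 kb (6.55 per Mb, 3.74 to 10.6), where the mean density would give 4.83. They stood 210 to 1928 kb from Flrt2, and 11 of them were nearer to Flrt2 than to the model. The strongest, at 94562249 to 94562672, was 16.7-fold with 33 fragments (22.7 to 46.3), 1129 kb from Flrt2. Between Fat4, an atypical cadherin gene, and Intu, a gene for forming cilia, 11 peaks lay in 1113 kb at 4.32- to 10.97-fold. Between Zfp608 and Gramd3 on chromosome 18, 10 peaks reached at most 9.56-fold, and 8 of them were nearer to Zfp608. The other side of Zfp608 bordered the desert of the strongest desert peak.

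Deserts beside Cited2, Efna5 and Adgrl2 held 9 peaks each. Cited2 encodes a coactivator of heart development that binds p300, and its desert was led by a peak of 20.3-fold with 44 fragments (32.0 to 59.1), 1852 kb from Cited2 and 1100 kb from the receptor gene Nmbr. Efna5 encodes an ephrin ligand, and its 3346 kb desert held 2.69 peaks per Mb (1.23 to 5.11), led by 17.9-fold. Adgrl2 encodes a latrophilin receptor. The desert between it and Ttll7 was led by 15.3-fold, and the desert on its other side held a peak of 29.0-fold with 46 fragments (33.7 to 61.4), 757 kb away.

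**Figure D4:**
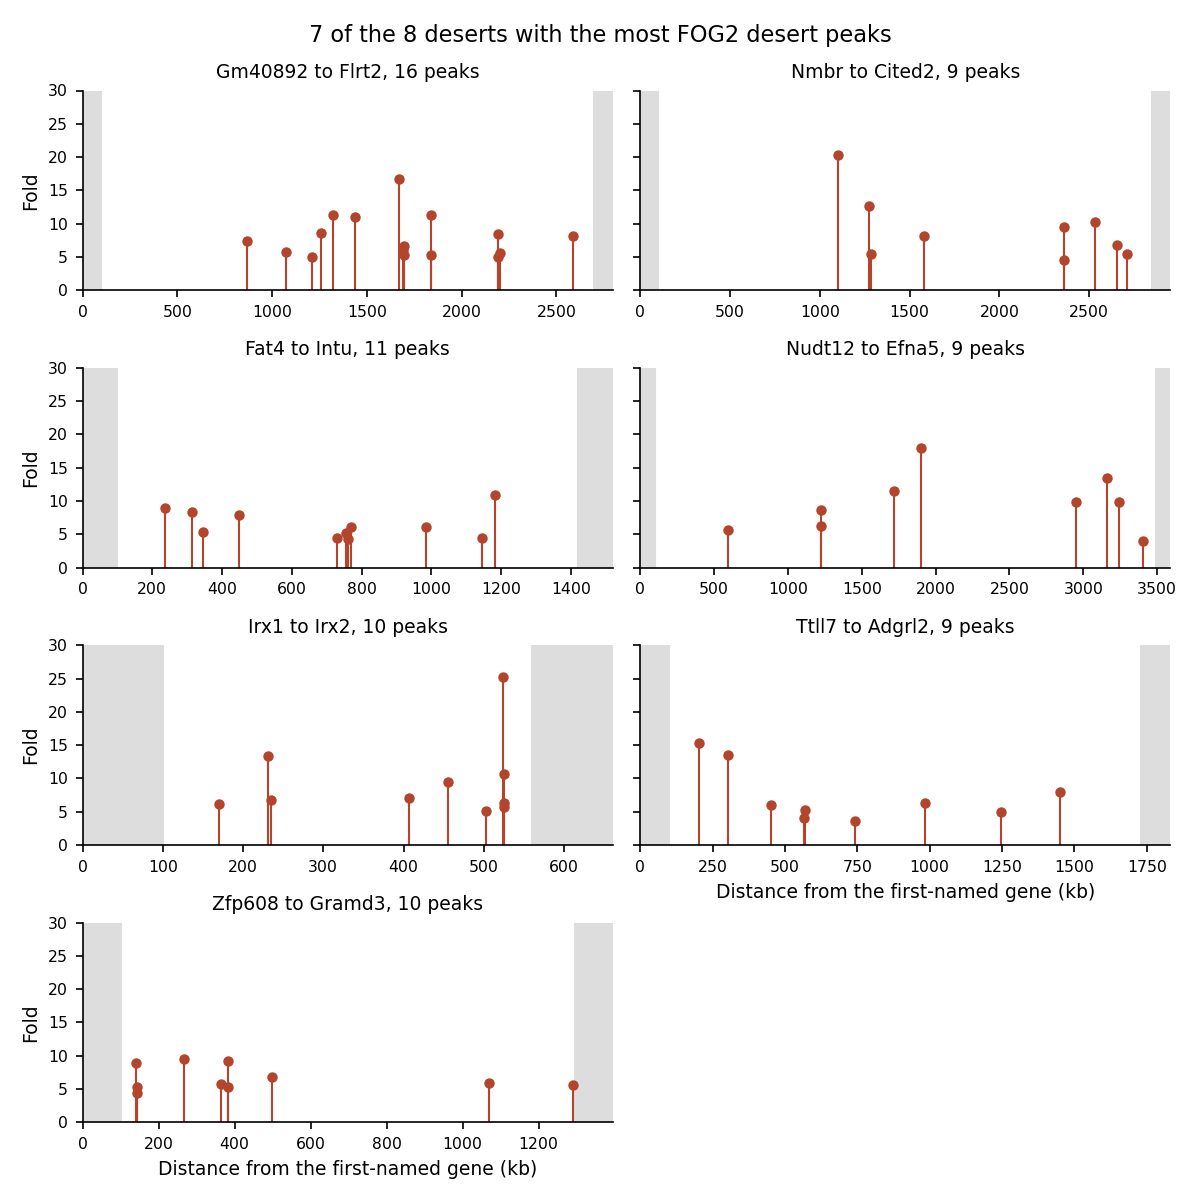
Fold of each desert peak (y axis) against its distance from the first-named bordering gene in kb (x axis) in 7 of the 8 deserts with the most peaks, and the right edge of each panel is the second-named gene. Grey bands are the 100 kb next to each gene, where no desert peak can lie. In the desert of Irx1 and Irx2, 4 of the 10 peaks share 1 spot, and the 16 peaks beside Flrt2 all lie 210 kb or more from it.

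Genes of cardiac transcription factors often bordered a desert with a FOG2 peak. Of 48 genes in the list, 27 bordered a desert, against 2298 of 20665 autosomal coding genes. For 22 of the 27 (81.5%, 63.3 to 91.8) the desert held at least 1 peak, against 41.5% of the 2298 coding genes that border a desert. With the 100 kb limit applied to genes of any biotype, 8 genes of the list had such a peak, and 26.9% of all bordering genes did. How many genes of the list border a desert under that limit is not given here. The 22 genes under the main rule included Gata6, Zfpm2, Tbx3, Tbx5, Tbx18, Tbx20, Hand2, Isl1, Mef2c, Myocd, Meis1, Meis2, Irx1 to Irx5, Nr2f1, Nr2f2, Foxp1 and Sox5. The 5 with 0 peaks under the main rule were Hey2, Irx6, Shox2, Zfhx3 and Sox6. The deserts of the list held 69 peaks in 16.0 Mb, or 4.30 per Mb (3.35 to 5.45), against 1.98 in all deserts. Their median size was 370 kb, and all deserts of 300 to 1000 kb held 2.48 (2.27 to 2.71). Without the 2 richest deserts of the list its density was 3.32 (2.45 to 4.39), an interval that overlaps that of the size class. Neighbouring members such as Irx1 and Irx2 share a desert, and so share its peaks.

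T-box genes had peaks in their deserts. Distances below are to the gene named, which need not be the nearer of the genes on both sides. Tbx3, a repressor that shapes the conduction system, bordered a desert with 3 peaks in 615 kb. They were 22.6-fold with 38 fragments (26.9 to 52.2) 494 kb away at 119176044 to 119176755 on chromosome 5 (411 kb from Med13l, the gene on the other side), 15.8-fold 319 kb away and 11.96-fold 131 kb away. All 3 were over 10-fold. Tbx20, a regulator of chamber growth, had 5 peaks in the 90.9 kb of its desert on chromosome 9, the strongest at 11.9-fold with 19 fragments (11.4 to 29.7), just over the limit at 100.2 kb. The others stood at 11.3-, 9.79-, 6.22- and 6.17-fold, 114 to 182 kb away. Tbx5, which drives atrial and septal genes, had 1 at 6.84-fold with 10 fragments (4.80 to 18.4), 130 kb away. Tbx18, a gene of the epicardium and sinus node, had 1 at 7.28-fold.

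The FOG2 and GATA genes gave moderate values. Gata6 bordered a desert with 4 peaks, at 6.96-, 11.8-, 4.74- and 7.22-fold and 146 to 387 kb away. The strongest, with 19 fragments (11.4 to 29.7), lay at 11255718 to 11256070 on chromosome 18. Zfpm2, the gene of FOG2 itself, had 1 desert peak of 5.31-fold with 14 fragments (7.65 to 23.5), 246 kb away. Gata4, Nkx2-5 and the growth factor gene Bmp10 bordered no desert and so could have no desert peak. They had 5, 4 and 3 peaks within 100 kb or in the body.

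Other cardiac regulators spread over a wide range of distance. Sox5 had 2, at 22.7-fold with 35 fragments (24.4 to 48.7) and 15.1-fold with 23 (14.6 to 34.5), 337 and 411 kb away. The first was 283 kb from Etnk1, a kinase gene on the other side, and both were nearer to it than to Sox5. Irx3 and Irx5 on chromosome 8 shared 2, at 13.7-fold with 46 fragments (33.7 to 61.4) and 10.97-fold with 30 (20.2 to 42.8), 166 and 186 kb from Irx3. Hand2, which drives growth of the right ventricle, had 5 at 4.96- to 8.70-fold, 123 to 417 kb away. Meis1 had 4 at 5.24- to 9.30-fold and Mef2c 5 at 5.12- to 7.54-fold, the farthest 1444 kb away. Nr2f2, a gene of atrial identity, had 3 at 5.04- to 6.22-fold, each resting on 9 or fewer fragments.

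**Figure D5:**
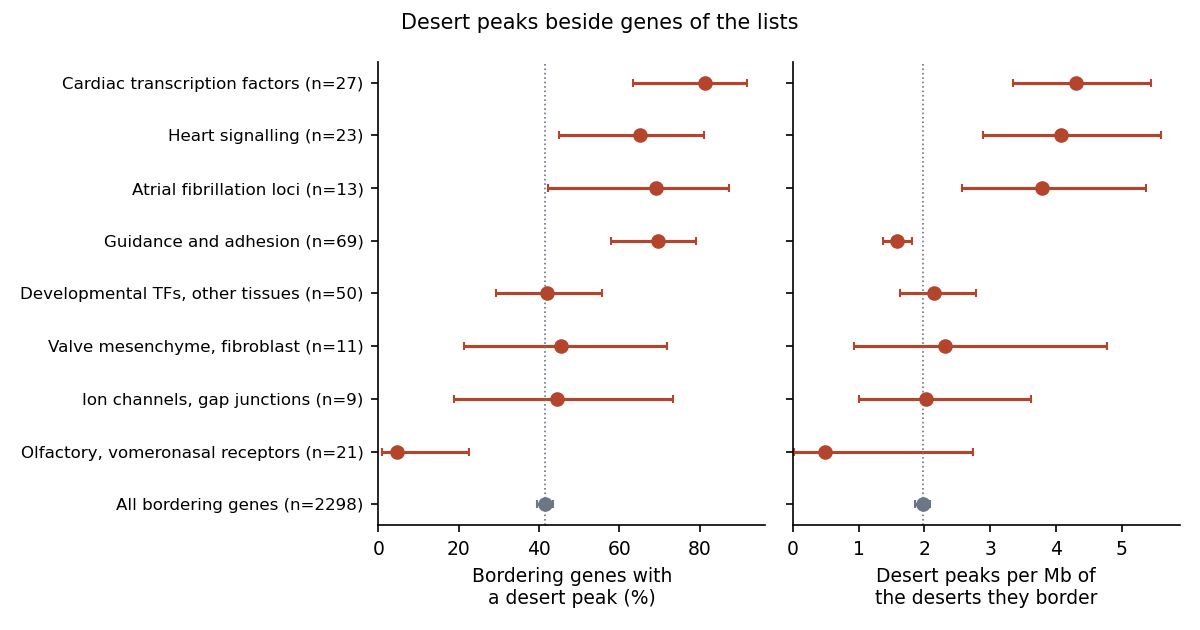
Share of bordering genes whose desert held a peak (left, with Wilson 95% intervals) and desert peaks per Mb of the deserts they border (right, with exact 95% Poisson intervals) for 8 gene lists, and last for all bordering genes, whose value is the dotted line. The cardiac transcription factor list stands at 81.5% and 4.30 per Mb, and the guidance and adhesion list at 69.6% but 1.59 per Mb.

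Genes of heart signalling bordered a desert with a peak in 15 of 23 cases (65.2%, 44.9 to 81.2), against 41.5% of all bordering genes. Their deserts held 4.08 peaks per Mb (2.89 to 5.60), against 1.98 in all deserts. The median size of their deserts was 249 kb, and all deserts of 100 to 300 kb held 2.75 (2.37 to 3.17), an interval that overlaps. Without the deserts of Fgf9 and Tgfb2 the density was 2.79 (1.77 to 4.18), an interval that holds the 1.98 of all deserts. Tgfb2, a growth factor gene of valve formation, had 7 peaks in 259 kb, led by 12.2-fold with 20 fragments (12.2 to 30.9), 178 kb away at 186444700 to 186444959 on chromosome 1. Fgf9, a growth factor gene of the ventricular wall, had 8, led by 11.3-fold 453 kb away. Bmp2 had 5, led by 11.8-fold 224 kb away. Jag1, the gene of a Notch ligand, had 2, led by 15.4-fold with 24 fragments (15.4 to 35.7), 462 kb away. Fgf10 had 1 at 11.2-fold and Nrg3 1 at 8.70-fold.

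Of 13 genes at atrial fibrillation loci that bordered a desert, 9 had a peak there (69.2%, 42.4 to 87.3), against 41.5% of all bordering genes. Their deserts held 3.78 per Mb (2.57 to 5.37), against 1.98 in all deserts. The median size of their deserts was 414 kb, and all deserts of 300 to 1000 kb held 2.48 (2.27 to 2.71), an interval that overlaps. Without the 2 richest deserts of the atrial fibrillation list the density was 2.32 (1.33 to 3.77), an interval that holds the 1.98 of all deserts. Tbx5, Tbx3, Sox5, Meis1 and Hand2 are among those that also belong to the transcription factor list. Gja1, the connexin 43 gene, had 3 peaks, at 15.6-fold with 42 fragments (30.3 to 56.8) 725 kb away, 13.1-fold 723 kb away and 8.08-fold 327 kb away. Cdk6 had 1 at 11.2-fold, and the ephrin receptor gene Epha3 had 2, led by 9.85-fold.

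Guidance and adhesion genes bordered the longest deserts of the larger lists, with a median of 966 kb against 192 kb over all deserts. Of 69, 48 had a desert peak (69.6%, 57.9 to 79.2), against 41.5% of all bordering genes. The density was 1.59 per Mb (1.38 to 1.82), against 1.98 in all deserts and 1.37 (1.24 to 1.51) in those of over 1000 kb. Adgrl2 had 15 peaks on its 2 sides, led by 29.0-fold, and Epha7 had 10, led by a peak of 25.9-fold that lay 2466 kb away and 530 kb from Map3k7 on the other side. Slitrk5 (25.7-fold), Negr1 (24.4-fold), Slitrk6 (24.4-fold) and Pcdh20 (23.5-fold) followed, and Slitrk5 and Slitrk6 share a desert. Developmental transcription factors of other tissues stood at the background, with 21 of 50 (42.0%, 29.4 to 55.8) and 2.15 per Mb (1.62 to 2.79). They were led by Bcl11a (28.6-fold), Bcl11b (27.98-fold), Sall3 (18.5-fold), Nkx6-1 (16.8-fold), Sall1 (14.2-fold) and Runx1 (12.2-fold).

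Among genes with over 300 kb of desert beside them, 19 of 21 cardiac transcription factor genes (90.5%, 71.1 to 97.3) had a desert peak. In the same class 8 of 9 signalling genes, 46 of 58 guidance and adhesion genes (79.3%) and 16 of 23 developmental factors of other tissues (69.6%) had one, against 68.7% of all 954 genes in it. Size was not matched within the class: the median was 608 kb for cardiac transcription factor genes and 2241 kb for guidance and adhesion genes, against 777 kb for all. Among genes with up to 300 kb, 3 of 6 cardiac transcription factor genes, 7 of 14 signalling genes, 2 of 11 guidance and adhesion genes and 5 of 27 developmental factors of other tissues had a desert peak, against 22.2% of all 1344. No list was tested against the background. A gene is set beside a peak here by position alone, which does not show on which gene a site acts, and peaks are not replicates.

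Among structural and channel genes of the heart, 3 of 37 sarcomere genes, 4 of 23 calcium handling genes and 9 of 25 ion channel and gap junction genes bordered a desert, against 2298 of 20665 autosomal coding genes. The counts with a peak below read against 41.5% of all bordering genes, and the interval of each of these 3 shares holds that value. Of the 3 sarcomere genes 2 had a peak: Myom2, an M-band gene, with 3 led by 13.1-fold with 36 fragments (25.2 to 49.8), and Nebl, the nebulette gene, with 2 led by 10.5-fold. Of 4 bordering calcium handling genes 3 had one. Atp2b1, a calcium pump gene of the cell membrane, had 6, led by 12.2-fold 109 kb away, Slc8a1, the sodium-calcium exchanger gene, had 1 at 7.48-fold, and Ryr2, the gene of the calcium release channel, had 2 led by 6.93-fold. Of the 9 ion channel and gap junction genes 4 (44.4%, 18.9 to 73.3) had one: Gja1, Kcnj2 (11.96-fold), Kcnj3 (9.92-fold) and Kcnd2 (5.55-fold).

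Of the marker genes of other cells, 7 of 22 autosomal endothelial, 3 of 13 epicardial, 11 of 19 valve and fibroblast, 6 of 15 neuronal, 3 of 14 blood and 2 of 11 hepatocyte genes bordered a desert. Over all autosomal coding genes, 2298 of 20665 did. The interval of each share with a peak holds the 41.5% of all bordering genes. Endothelial genes had 4 of 7, Klf4 (6.93-fold), Kdr (6.39-fold), Cdh5 (5.60-fold) and Ets1 (4.51-fold). Epicardial genes had 2 of 3, Tbx18 (7.28-fold) and Sema3d (6.72-fold). For valve mesenchyme and fibroblasts the count was 5 of 11, Has2 (9.84-fold), Col3a1 (6.30-fold), Sox9 (6.30-fold), Pdgfra (5.60-fold) and Dcn (5.22-fold). The peak beside Sox9 stood 704 kb away and rested on 9 fragments (4.12 to 17.1). Neuronal genes had 2 of 6, Syt1 (11.3-fold) and Nefm (8.08-fold), blood genes 2 of 3, Ptprc (12.49-fold) and Runx1 (12.2-fold), and hepatocyte genes 1 of 2, Cps1 (5.67-fold). No skeletal muscle or housekeeping gene of the lists bordered a desert. Of 21 olfactory or vomeronasal receptor genes at a desert, a family named after the values were seen, 1 had a peak (Olfr1505, 4.37-fold), in deserts of a median of 30.8 kb.

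A close peak was found for a larger share of the genes with a desert peak than of those without, a difference that was not tested. Of the 954 bordering genes with a desert peak, 517 (54.2%, 51.0 to 57.3) also had a peak in the body or within 100 kb. Of the 1344 without, 590 did (43.9%, 41.3 to 46.6), and over all bordering genes the share was 48.2%. In the body alone the shares were 27.7% and 19.6%. Genes with a desert peak were longer, with a median of 58.9 kb against 45.2 kb, and the part of gene length was not tested. By desert size the shares with and without a desert peak were 56.7% and 44.9% up to 100 kb, 52.2% and 45.1% at 100 to 300 kb, 58.0% and 40.2% at 300 to 1000 kb and 49.6% and 40% above. The intervals overlap in each class but that of 300 to 1000 kb, where genes with a desert peak were the shorter ones (56.9 kb against 68.7 kb). In the cardiac transcription factor list, 19 of the 22 genes with a desert peak had a closer one too. Isl1 and Irx2 were among the exceptions, with their closest peaks in the desert. The genes of this list without a desert peak, Hey2, Irx6, Shox2, Zfhx3 and Sox6, each had a peak in the body or within 100 kb. The difference above was thus not seen in this list.

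The 3 most remote peaks lay in 2 deserts. The farthest from any coding gene stood 2099 kb from Pcdh20 and 2444 kb from Pcdh9 on chromosome 14, at 5.67-fold with 8 fragments (3.45 to 15.8). Another 42.6 kb from it was 23.5-fold with 38 fragments (26.9 to 52.2), at 90527122 to 90527761. The peak second in distance lay between Cntnap5b and Cdh20 on chromosome 1, 2081 kb from Cdh20, at 6.79-fold with 10 fragments (4.80 to 18.4).

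At the 100 kb limit, the 3 desert peaks nearest to it stood 100.2 kb from Rxfp2 (8.19-fold), 100.2 kb from Tbx20 (11.9-fold) and 100.4 kb from Magi3 (6.61-fold). The 3 peaks just short of it stood 99.8 kb from Etnk1 (6.22-fold), 99.6 kb from Gm8882 (11.96-fold) and 99.2 kb from Magi3 (6.99-fold). The summits on either side of the limit at Magi3 were 1.18 kb apart.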

How the data were processed

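Biotinylated FOG2 was pulled down from ventricle chromatin, fixed in 1% formaldehyde for 10 minutes and broken to 300 to 800 bp, per the labels' protocols. The authors deposited 1 list of peaks for the pooled pulldown, without blacklisted regions per its name. The submitters' processing notes name Bowtie2 2.3.2, SAMtools 1.5, Picard, MACS2 2.1.1 and mm10. Their settings were not given in the sources used here. Each peak was deposited with a fold (ratio of pulldown to control), a −log10 p and a −log10 q, and a display score that is 10 times the −log10 q, cut to its whole part, and was not used.

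Genes came from the RefSeq table of GRCm38.p6, the assembly of mm10, and sequences from the RefSeq promoter table of that build. No genome sequence was at hand, so motifs were searched in promoter windows only, in place of the summit windows planned. A desert is the stretch between 2 neighbouring coding gene bodies that holds sequence meeting the rule. Fragments k and control level c were solved from fold = (k + 1)/(c + 1) and a Poisson tail. A whole k matched within 0.001 at every peak, and 83 peaks (20 in deserts) allowed another k. Scripts were tested on simulated data. Python 3.11.15, pandas 2.3.3 and scipy 1.17.1 were used.

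The members and the gene lists (16, with 478 distinct genes, all matched) were chosen with earlier results of these data known. No test was run, since the list is pooled. Named were the 10 strongest peaks, the 8 richest deserts (1 of them is not reported here), the 3 remotest peaks, 3 on each side of the limit, up to 6 genes per list and 13 fixed genes. Genes and list members given beyond this were named after their values were seen. The side of the gene that a peak faces was not analysed, since a strand was found for the nearest gene of 74.9% of desert peaks, under the share such a check needs.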

Additional observations from a re-analysis of the deposited data

How the results depend on the processing

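Of 70 values recomputed under 10 alternatives, 48 stayed within 1.5 times the reported count or within the interval of the reported value, and 22 moved. The count of desert peaks was 745 at over 200 kb from coding genes and 276 at over 100 kb from genes of any biotype, where 319 and 162 deserts held a peak. Under the second of these, 8 cardiac transcription factor genes had a desert peak. The median fold was 8.05 at a −log10 q of at least 5, 7.14 at a fold of at least 5 and 6.31 with genes of any biotype, and the share at 10-fold was 28.1% and 22.4% under the first 2. Density per Mb was 1.32 at a −log10 q of at least 5, 1.66 at a fold of at least 5, 2.101 at over 50 kb, 1.75 at over 200 kb, 1.39 with genes of any biotype and 1.83 with the X chromosome. In the same order, the share of bordering genes with a desert peak was 34.2%, 38.1%, 33.3%, 46.9%, 26.9% and 38.9%. Fewer peaks or less sequence enter by construction in several of these, and the cause was otherwise not tested. Counting unnamed coding gene models as noncoding, chosen after seeing the data, moved nothing past these limits. No paired analysis was possible because the pulldown replicates were pooled in the list, and for the same reason no replicate could be left out. A median of 12 fragments limits what single peaks can show.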

Other observations

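Desert peaks made up different shares of the peaks of each autosome. On chromosome 18 they were 27.3% of all peaks, with 71 desert peaks and a density of 2.84 per Mb (2.22 to 3.59), against 3.02 (2.61 to 3.49) in its rest. On chromosome 11 they were 11.1%, with 35 and 1.44 per Mb (1.003 to 2.002), against 2.86 (2.53 to 3.21) in its rest. The share of each autosome that is desert was not set beside these shares, so they alone are no trait of the peaks. The highest median fold of desert peaks was 7.66, on chromosome 10, and the lowest 6.17, on chromosome 12. The rule applied to the X chromosome as well gave 1193 desert peaks in place of 1178.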
